A study of Drosophila melanogaster with 72 samples.

Results

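The genes described here are the 118 cuticle protein and Osiris genes among the 13557 genes of an RNA-seq table from Drosophila melanogaster heads. They were chosen by symbol alone: 62 Cpr genes, 19 Twdl genes, 9 Lcp genes, 6 Ccp84 genes, Acp65Aa, Pcp and 20 Osi genes. Heads came from 4 models of Huntington's disease in which a GAL4 driver expressed a mutant human huntingtin (mHTT) transgene, each compared with flies that carried the driver without the transgene. In the neuronal N-terminal model (elav-GAL4/+; UAS-HTTNT231Q128/+), driven in neurons, and its elav-GAL4/+ controls, heads were taken at days 7, 9 and 11 after eclosion. The glial N-terminal model (repo-GAL4/+; UAS-HTTNT231Q128/+), driven in glia, and its repo-GAL4/+ controls were sampled at days 5, 7 and 8. The neuronal full-length model (elav-GAL4/+; UAS-HTTFLQ200/+), the glial full-length model (repo-GAL4/+; UAS-HTTFLQ200/+) and the driver controls of each were sampled at days 18, 20 and 22. Flies were kept at 28 °C, except that the neuronal full-length model and its controls were kept at 29 °C. Every group of 1 genotype at 1 age had 3 libraries of 50 pooled heads, which gave 24 groups and 72 libraries. The labels do not say that the 3 libraries of a group came from separate cultures, so p-values measure the spread between these libraries, which may be technical. For the neuronal full-length mHTT libraries the age field was followed, since their titles name days 7, 9 and 11.

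Cpr proteins carry the Rebers-Riddiford chitin-binding domain and form the bulk of insect cuticle together with the Tweedle (Twdl), larval (Lcp), adult (Acp) and pupal (Pcp) cuticle proteins. They are made by epidermal cells in bursts around each moult, and the adult head capsule, bristles and corneal lenses are secreted before or shortly after eclosion. Osiris (Osi) genes encode small transmembrane proteins of cuticle-secreting cells, most of them from a single cluster in the Triplo-lethal region. The adult heads measured here were collected after that cuticle was laid down.

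Depth, estimated from the step between low values, was 34.9 to 46.7 M reads per library with a median of 41.6 M, and it limits counting error only. Values are upper-quartile-normalised gene values, with the 75th percentile of every library set at 1000, and they are not scaled by gene length. Defining markers placed the samples in the head: the sum of elav, nSyb and brp was 14553 or more in every library, and that of the photoreceptor genes ninaE, trp and Arr2 was 527578 or more. Sums of 6 digestive enzyme genes of the gut ranged from 16.3 to 73684. Those of 6 eggshell genes reached 13536 with neuronal full-length mHTT (median 94.9) and 10141 in the early glial controls (median 67.3). The part of tissue from outside the head in these sums was not tested. Because whole heads were sequenced, fewer cells of a type and less RNA per cell cannot be told apart in any comparison below. Library names in the labels begin with 1 of 3 prefixes that are unevenly spread over the groups, and results that turn on them are named below.

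Most members were silent or nearly so in adult heads. Only 44 of the 118 reached a value of 10 in 3 or more of the 72 libraries: 29 Cpr, 6 Twdl, 4 Osi and 3 Lcp genes, with Acp65Aa and Pcp, and no Ccp84 gene. A median of 0 over the 72 libraries was found for 42 members, and 35 stayed below 10 in every library. The median was 30 or more for 22 members, of which 16 were Cpr, 2 Twdl, 2 Osi and 2 Lcp genes. Per kilobase of exon, control medians were highest for Cpr65Au at 4675, Cpr72Ec at 3623 and Cpr67B at 2914, far above Osi2 at 349, Cpr49Ag at 305, Cpr57A at 254 and TwdlG at 147. Cpr72Ec is, with Cpr66D, Crys and retinin, one of the corneal lens proteins of the fly eye, and Cpr66D had a control median of 28.6 per kilobase.

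The 2 highest members of the smaller families stood far lower on the same scale. Lcp65Ac and Lcp65Ag2, genes of the larval cuticle protein family, had control medians of 77.3 and 60.8 per kilobase, and TwdlT had 85.6. Among the Osiris genes Osi8 followed Osi2 at 41.8 per kilobase. Pcp, the pupal cuticle protein gene that sits inside an intron of another gene, stood at 10.8 per kilobase and Acp65Aa, an adult cuticle protein gene, at 3.58. Ccp84Ag had 0.423 per kilobase and Ccp84Ac had a control median of 0.

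Neighbouring members differed widely in level. By the order of genes in the Ensembl annotation of BDGP6.54, which is not the authors' annotation, 82 of the 116 members it places lay in 16 runs of 3 or more with no more than 5 other genes between neighbours. The longest run, on arm 3R, held 16 Osiris genes. In it Osi2 had a control median of 608 and Osi8 of 47.5, whereas Osi6 had 4.14 and Osi1, Osi12, Osi13, Osi14 and Osi15 had 0. Osi23, outside that run and known as gore-tex for its part in the pores of olfactory bristles, did not pass 4.07 in any library.

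Among the controls, 2 libraries stood apart in these genes. Replicate 1 of the glial controls at day 8 had 47 members at a value of 30 or more, and replicate 2 of the neuronal controls at day 11 had 31, against 16 to 26 in the other 70 libraries. In the day 8 library 28 members reached 10 that stayed below 10 in each of the other 71 libraries: 12 Cpr, 10 Twdl, 4 Ccp84 and 2 Osi genes. TwdlD had a value of 869 there and at most 2.36 elsewhere. Cpr65Ea had 858 there and at most 1.81 elsewhere, TwdlM had 791 against at most 6.57, and Osi15 had 244 against at most 3.03. The day 11 library held the highest value of the 72 for 19 members, among them Cpr72Ec at 14705, Cpr65Au at 13544 and Cpr57A at 2100. The day 11 library also stood apart in other genes, with a sum of elav, nSyb and brp of 15888, against 28492 and 29866 in its 2 replicates, and a fat body sum of 3242262, against 1641198 and 1124599. Its sum of 14 ecdysone response regulators was 2941, against 10837 and 11141, and it is the 1 library with the label prefix V31614. The part of these in its cuticle transcripts was not tested. Comparisons that use either library are given with and without it where the result moved.

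**Figure D1:**
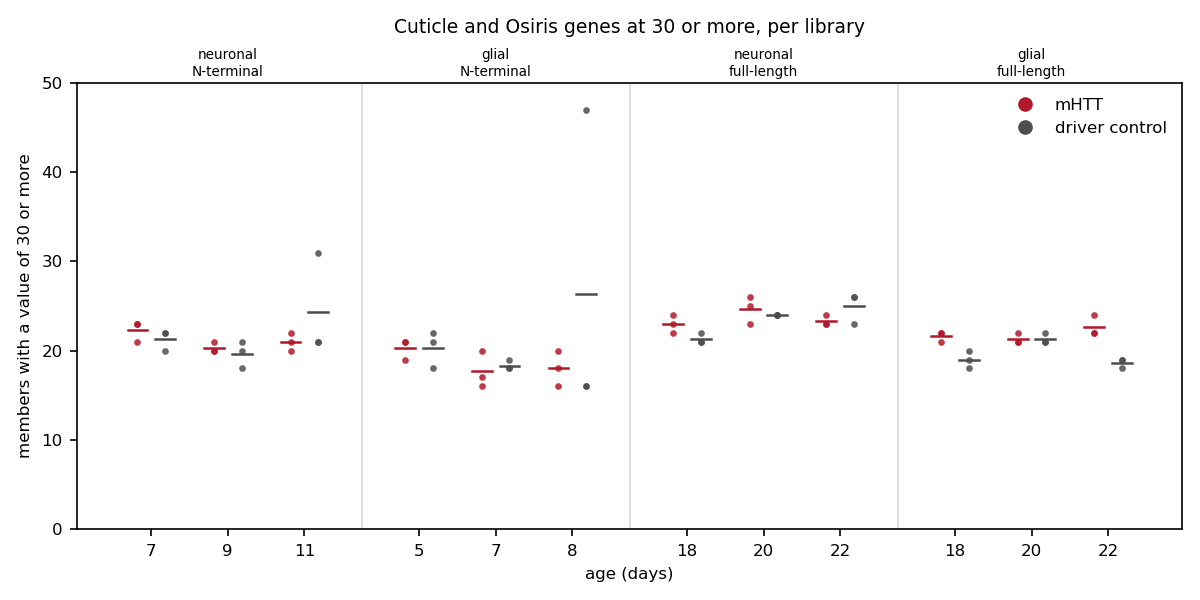
Number of the 118 cuticle protein and Osiris genes with a value of 30 or more (y axis) in each of the 72 libraries, by model and age in days (x axis); points are libraries, red for mHTT and grey for driver controls, and bars are means of 3. The glial control library with 47 members and the neuronal control library with 31 lie above the range of 16 to 26 of all others.

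With neuronal N-terminal mHTT, 33 members passed the low-value filter of 10 in 3 libraries of the comparison, and over the mean of the 3 ages 4 rose and 4 fell at an adjusted p under 0.05. Of all 10162 genes tested, 6.03% rose and 7.53% fell, and the median log2 change was 0.08 for the members and 0.01 for all genes. By age, 4 members changed at day 7 against a background of 1.98% of all genes, 3 at day 9 against 4.32%, and 8 at day 11 against 7.77%. The change differed between ages for no member in limma's moderated F test (background 0.00984%; 7 members at an unadjusted p under 0.05). Without the neuronal control library of day 11 that stood apart, 16 of 32 members changed, 12 up and 4 down, and 7 of these were among the 8 above. In that fit 36.8% of all 10127 genes changed (3729 genes), against 1378 of 10162 with the library.

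With glial N-terminal mHTT, 34 members passed the filter, 3 rose and 9 fell. Among all 10358 genes tested 20.4% rose and 12.1% fell. The median log2 change was -0.23 for the members and 0.06 for all genes. At day 5 there were 8 members called against a background of 13.5%, at day 7 there were 8 against 17.8%, and at day 8 there were 5 against 10.5%. No member's change differed between ages (background 0.270%; 4 members at an unadjusted p under 0.05).

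With neuronal full-length mHTT, 36 members passed the filter, 7 rose and 8 fell, where 9.40% of all 10538 genes rose and 9.54% fell. The medians were 0.09 for the members and 0.00 for all genes. The counts at days 18, 20 and 22 were 7, 6 and 9 members, beside backgrounds of 9.20%, 4.14% and 7.65%. No member's change differed between these ages (background 0.731%; 8 members at an unadjusted p under 0.05). Replicate 1 of the mHTT heads at day 22 stood apart, with a sum of elav, nSyb and brp of 14553 against 32210 and 32121 in its replicates, a photoreceptor sum of 527578 against 1097437 and 1067704, and a gut sum of 73684 against 512 and 549. Without it, 11 of 36 members changed at day 18 (25.8% of all genes), 13 at day 20 (14.9%) and 19 over the mean of the 3 ages (35.7%). With glial full-length mHTT, 34 members passed, 11 rose and 9 fell, where 19.3% of all 10421 genes rose and 25.1% fell, with medians of 0.17 for the members and -0.04 for all genes. There, 10 members changed at day 18 (background 20.2%), 14 at day 20 (20.4%) and 18 at day 22 (31.5%). Cpr49Ae was the 1 member whose change differed between ages, against a background of 0.864%.

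Across the models 41 members were tested in at least 1 and 29 in all 4. A change was called for 32 of the 41, in exactly 1 model for 18 and in opposite directions in different models for 11. Of all 10788 genes tested in at least 1 model, 64.4% were called in at least 1, 34.2% in exactly 1 and 15.1% in opposite directions. These counts and the family counts below keep all libraries and were not made again without those that stood apart. Without 1 such library each, members called went from 8 to 16 with neuronal N-terminal mHTT (36.8% of all genes) and from 15 to 19 with neuronal full-length mHTT (35.7%). Osi2, Osi8 and Cpr49Ae were called in all 4 models, Osi8 with limits given below. Osi2 fell in all 4, and TwdlG fell in 3. By family, the Cpr genes gave 3 higher and 1 lower of 23 tested with neuronal N-terminal mHTT, where 6.03% and 7.53% of all genes were called higher and lower. With glial N-terminal mHTT, 2 of 24 were higher and 6 lower (20.4% and 12.1% of all genes). With neuronal full-length mHTT, 7 of 25 were higher and 4 lower (9.40% and 9.54%), and with glial full-length mHTT 8 of 23 were higher and 5 lower (19.3% and 25.1%). The other families follow in the same order of models, beside the same shares. Osi genes gave 0 higher and 2 lower of 2, then 0 and 2 of 3. In the full-length models they gave 0 and 3 of 4, then 1 and 1 of 3. Twdl genes gave 1 and 1 of 4 in both N-terminal models, then 0 and 1 of 3 and 0 and 3 of 5. Of the Lcp genes, 2 of 2 rose with glial full-length mHTT and none was called in the other models. Pcp was not called.

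**Figure D2:**
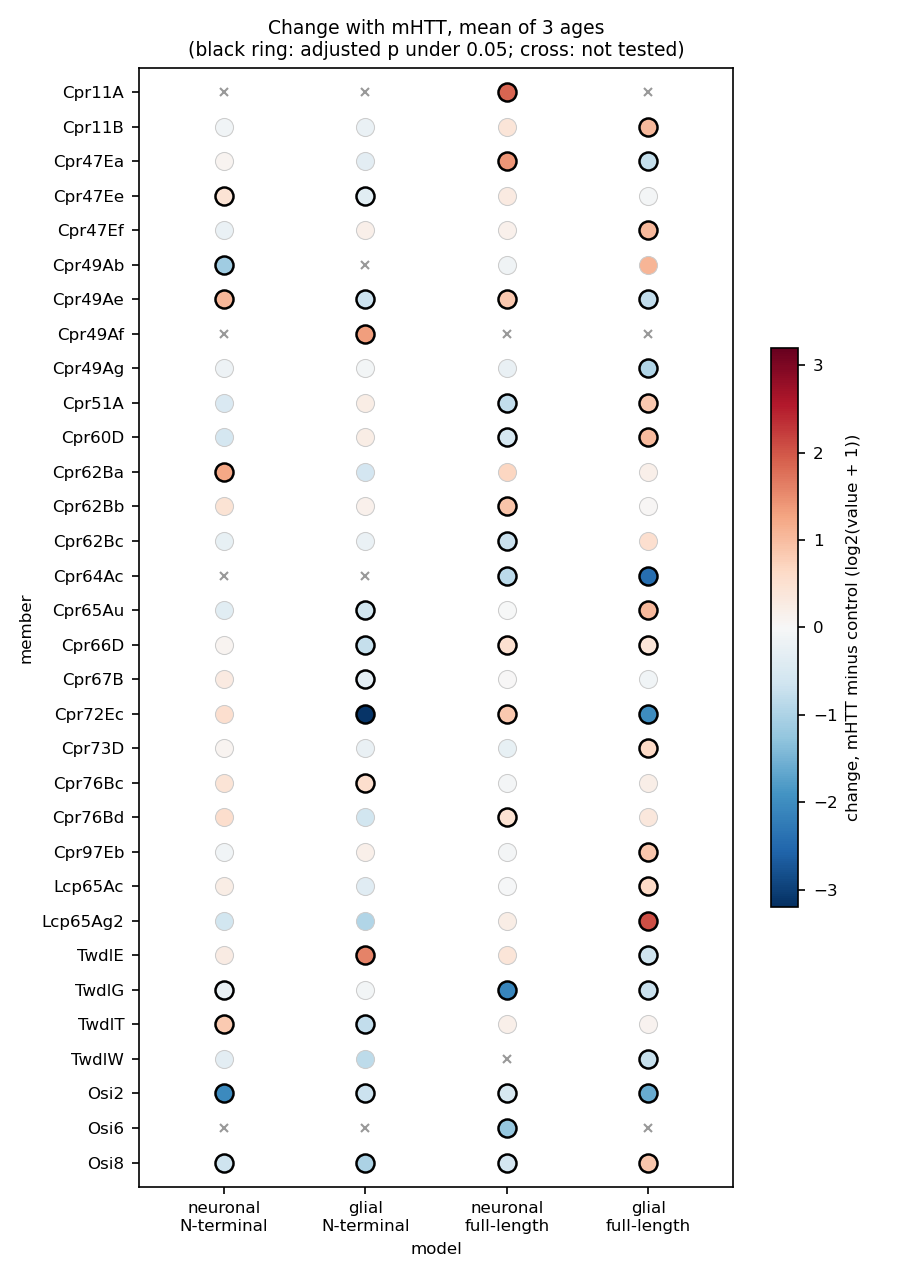
Change with mHTT over the mean of 3 ages, on the log2(value + 1) scale (colour), for the 32 members called in at least 1 of the 4 models (rows, grouped by family; columns, models). A black ring marks an adjusted p under 0.05 and a cross a member that was not tested; Osi2 is lower in all 4 columns, and Cpr72Ec and Cpr49Ae have opposite signs in the neuronal and the glial columns.

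The strongest change of any member was that of Cpr72Ec, the corneal lens gene. In glial N-terminal mHTT heads day 5 gave values of 1815, 1230 and 911, day 7 gave 2397, 1617 and 1484, and day 8 gave 632, 949 and 838. In the repo-GAL4/+ controls the same days gave 11971, 11211 and 9930, then 11771, 11444 and 13042, then 9807, 8693 and 9938. The lowest control library was above every mHTT library, and at each age the groups were far apart. The means were 1319 ± 563 in mHTT and 10867 ± 1360.5 in control heads (SD, n = 9 each), a log2 change of -3.15 (SE 0.13, adjusted p = 1.95e-11), or 8.24-fold lower. The day 8 control library that stood apart had a Cpr72Ec value like its 2 replicates.

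With glial full-length mHTT, Cpr72Ec was 1311 to 2724 with a median of 1572, against 4673 to 12184 with a median of 6393 in controls. The 2 groups did not overlap, and the log2 change was -2.01 (SE 0.14, adjusted p = 5.32e-09). With neuronal full-length mHTT the sign was opposite. Day 18 gave 5978, 4844 and 6146, day 20 gave 5045, 5407 and 5996, and day 22 gave 3274, 5821 and 5995. The elav-GAL4/+ controls had 2772, 2844 and 3415, then 2758, 3118 and 3380, then 2975, 2523 and 2787. Cpr72Ec was higher in the mHTT libraries at each age without overlap, by a log2 change of 0.85 (SE 0.11, adjusted p = 6.36e-05).

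With neuronal N-terminal mHTT, Cpr72Ec ranged from 4677 to 8914 with a median of 7118, against 3041 to 14705 with a median of 3754 in controls. The top control value is that of the day 11 library that stood apart. The log2 change was 0.54 (SE 0.24, adjusted p = 0.168) with that library and 0.78 (SE 0.10, adjusted p = 2.05e-05) without it.

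The other corneal lens member, Cpr66D, was far lower and moved less. It had 12.1 to 40.6 in glial N-terminal mHTT heads against 27.5 to 57.4 in controls, a log2 change of -0.77 (SE 0.15, adjusted p = 0.000995). It was called at day 8 of that model, with 21.7, 12.8 and 12.1 in mHTT heads against 48.3, 34.0 and 27.5 in controls (-1.20, SE 0.26, adjusted p = 0.00645). With glial full-length mHTT, where Cpr72Ec fell, it rose by 0.41 (SE 0.11, adjusted p = 0.00558). It also rose with neuronal full-length mHTT, by 0.52 (SE 0.11, adjusted p = 0.00473), and its groups overlapped in both.

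Retinin, a corneal lens gene outside the families, was called in 3 models. With glial N-terminal mHTT it was 5408 to 10861, against 5638 to 10915 in controls, and was not called. It fell with glial full-length mHTT (-1.61, SE 0.08, adjusted p = 1.24e-10) and with neuronal full-length mHTT (-1.22, SE 0.18, adjusted p = 0.00022), and rose with neuronal N-terminal mHTT (0.96, SE 0.19, adjusted p = 0.00289). Crys, the lens crystallin gene, fell in the 2 neuronal models, by 1.24 on the log2 scale with the N-terminal and by 1.15 with the full-length form. The summed value of the photoreceptor markers ninaE, trp and Arr2 was 1248968 to 1817076 in glial N-terminal mHTT heads, against 943024 to 1106953 in controls. The sum of the glial markers repo, nrv2 and Gs2 was 12961 to 16672 there, against 20160 to 26612 in controls, and that of 5 haemocyte markers 13213 to 17244, against 8033 to 12765. The part of any of these sums in the Cpr72Ec change was not tested.

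**Figure D3:**
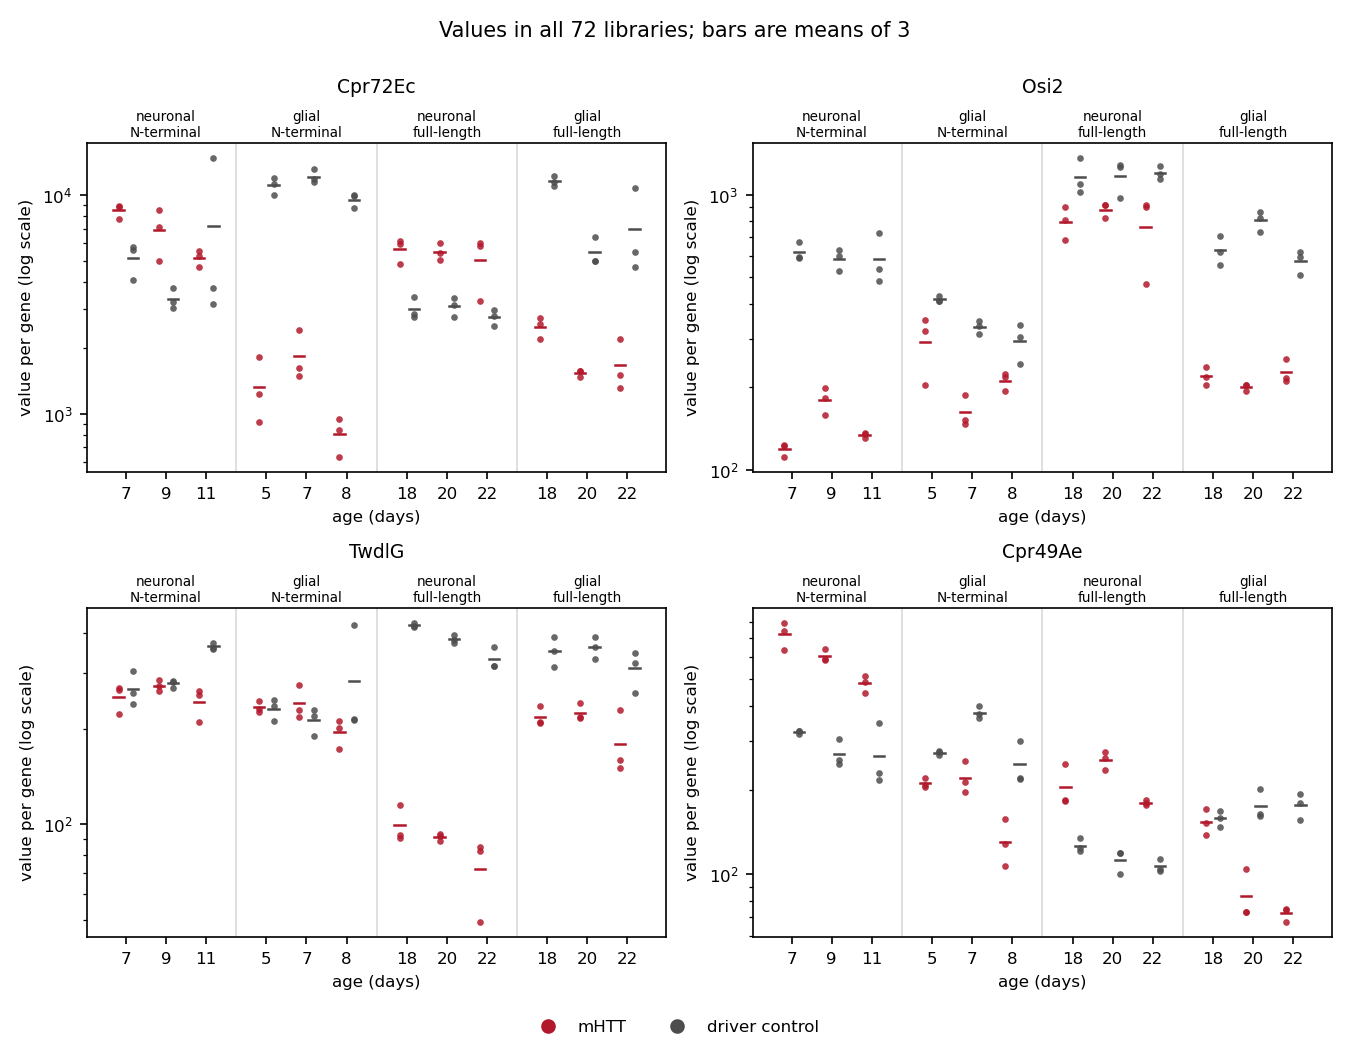
Values of Cpr72Ec, Osi2, TwdlG and Cpr49Ae (y axes, log scale) in all 72 libraries by model and age in days; points are libraries, red for mHTT and grey for driver controls, and bars are means of 3. Cpr72Ec is at 632 to 2397 in glial N-terminal mHTT heads against 8693 to 13042 in controls, and TwdlG at 49.1 to 115 in neuronal full-length mHTT heads against 315 to 430.

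Cpr49Ae, a chitin-binding Cpr gene of a run of 7 on arm 2R, moved in opposite directions with the 2 drivers. With neuronal N-terminal mHTT day 7 gave 793, 743 and 634, day 9 gave 642, 585 and 589, and day 11 gave 513, 488 and 445. The controls had 318, 326 and 326, then 248, 304 and 256, then 229, 346 and 217. No control reached the lowest mHTT value, and the log2 change was 1.07 (SE 0.09, adjusted p = 2.33e-06). With neuronal full-length mHTT it was 176 to 275, against 99.9 to 135 in controls, a rise of 0.87 (SE 0.07, adjusted p = 7.14e-07) with no overlap.

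With glial N-terminal mHTT, Cpr49Ae fell by 0.68 on the log2 scale (SE 0.08, adjusted p = 8.65e-06), with means of 188 ± 47.3 in mHTT heads and 299 ± 65.5 in controls (SD, n = 9 each). With glial full-length mHTT the change depended on age. Day 18 values were 172, 153 and 138 in mHTT heads against 148, 158 and 169 in controls. Those of day 20 were 105, 73.2 and 73.4 in mHTT heads against 165, 161 and 202 in controls, and those of day 22 were 75.1, 74.6 and 67.4 against 179, 157 and 194. The groups overlapped at day 18 only. The log2 changes were -1.07 at day 20 (SE 0.14, adjusted p = 5.16e-05) and -1.27 at day 22 (SE 0.14, adjusted p = 5.72e-06), and they differed between the 3 ages (moderated F = 20.9, adjusted p = 0.0198).

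Neighbours of Cpr49Ae on the chromosome did not share its pattern. Cpr49Ag fell with glial full-length mHTT, to 54.7 to 130 against 122 to 221 in controls (-0.97, SE 0.08, adjusted p = 8.00e-08), and was not called in the other 3 models. Cpr49Ab was high in single libraries of several groups, up to 965 in a neuronal control at day 22 whose 2 replicates had 15.8 and 96.8, and its fold changes rest on such libraries. In the run on arm 2R that holds Cpr47Ea, Cpr47Ee and Cpr47Ef, the 3 genes also differed. Cpr47Ea rose with neuronal full-length mHTT, with 9.56 to 36.2 against 2.21 to 18.7 in controls (1.40, SE 0.26, adjusted p = 0.00159). Cpr47Ee rose with neuronal N-terminal mHTT (0.47, SE 0.09, adjusted p = 0.00227) and fell with glial N-terminal mHTT (-0.37, SE 0.08, adjusted p = 0.00145). Cpr47Ef rose with glial full-length mHTT, where 82.1 to 139 stood against 31.3 to 85.3 in controls (1.03, SE 0.13, adjusted p = 5.52e-06).

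The larval cuticle protein gene Lcp65Ag2 and its neighbour Cpr65Au, from a run of 9 on arm 3L, rose with glial full-length mHTT. For Lcp65Ag2 in mHTT heads, day 18 gave 80.4, 65.1 and 43.6, day 20 gave 131, 119 and 117, and day 22 gave 134, 125 and 153. In controls it had 17.5, 19.0 and 33.6, then 39.8, 38.7 and 26.1, then 13.7, 14.0 and 25.1. All 9 mHTT libraries exceeded all 9 controls, and the log2 change was 2.05 (SE 0.16, adjusted p = 3.97e-08). Reads of Lcp65Ag2 may be shared with its near-identical neighbour Lcp65Ag3, so the split between them is uncertain. Lcp65Ac, the other larval gene of the run above 30, rose by 0.63 (SE 0.18, adjusted p = 0.0103). Neither was called in another model.

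Cpr65Au, the member with the highest level per kilobase, had 2396 to 4919 with glial full-length mHTT, against 1362 to 2524.5 in controls. The groups met at day 18 and were apart at days 20 and 22, and the log2 change was 1.04 (SE 0.11, adjusted p = 1.40e-06). It fell with glial N-terminal mHTT, with means of 1416 ± 413 in mHTT heads and 2143 ± 529 in controls (-0.61, SE 0.15, adjusted p = 0.00629). An antisense gene overlaps Cpr65Au in the annotation, and whether strand was used in counting is not given in the sources used here. Beside the glial full-length results, the summed fat body markers were 1123030 to 2274458 in mHTT heads, against 340293 to 738530 in controls, the haemocyte sum was 6720 to 11769, against 2359 to 5756, and the gut sum 63.6 to 665, against 730 to 65064. Their part in these changes was not tested.

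Of the other Cpr genes with a level above 30, Cpr51A changed in opposite directions in different models, and Cpr64Ac fell with neuronal full-length mHTT. An antisense gene overlaps each of these in the annotation, so the assignment of their reads is uncertain. Cpr51A rose with glial full-length mHTT, with 115 to 188 against 65.3 to 93.3 in controls (0.87, SE 0.08, adjusted p = 2.47e-07), and fell with neuronal full-length mHTT, with 29.5 to 73.9 against 78.7 to 109 (-0.79, SE 0.10, adjusted p = 9.45e-05). Neither pair of groups overlapped. With neuronal N-terminal mHTT at day 11 it had 69.1, 58.3 and 83.2 against 135, 418 and 127 in controls, a log2 change of -1.46 (SE 0.33, adjusted p = 0.0171) that became -0.91 (adjusted p = 0.000813) without the control library at 418. With that library kept, the call was lost without the mHTT library at 69.1 or that at 58.3 (adjusted p = 0.0640 and 0.0721). Cpr62Bb rose with neuronal full-length mHTT at each age, with 167 to 336 against 109.5 to 198 in controls (0.91, SE 0.09, adjusted p = 5.16e-06). Cpr64Ac fell with neuronal full-length mHTT, with 14.3 to 33.7 against 32.4 to 52.2 in controls (-0.87, SE 0.14, adjusted p = 0.00045). In the glial full-length model Cpr64Ac had 0 to 3.39 with mHTT, against 3.23 to 15.2 in controls (-2.43, SE 0.37, adjusted p = 5.34e-05). It passed the filter there only through control libraries, and its values lie near 0. That call is therefore not read as a fall, and its size depends on the added 1.

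Among the Tweedle genes, TwdlG fell in 3 models and most with neuronal full-length mHTT. There day 18 gave 115, 90.2 and 92.6, day 20 gave 91.9, 88.1 and 92.7, and day 22 gave 49.1, 84.8 and 82.1. The controls had 430.2, 417 and 422, then 382, 371 and 393, then 315, 361 and 315. The highest mHTT library, at 115, was far below the lowest control, at 315. The means were 87.4 ± 17.1 in mHTT heads and 379 ± 42.9 in controls (SD, n = 9 each), a log2 change of -2.12 (SE 0.09, adjusted p = 3.15e-09).

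TwdlG also fell with glial full-length mHTT, with 150 to 240 against 258 to 389 in controls and no overlap (-0.72, SE 0.08, adjusted p = 3.20e-06). With neuronal N-terminal mHTT it was 210 to 284 against 239 to 373, a log2 change of -0.23 (SE 0.07, adjusted p = 0.0317) whose call was lost when any of 8 libraries was left out (adjusted p = 0.0512 to 0.0685). With glial N-terminal mHTT it had 173 to 274, against 190 to 424 in controls (-0.09, SE 0.12, adjusted p = 0.589), and the sign turned to 0.02 without the day 8 control library at 424. Its neighbours TwdlF and TwdlV in the same run on arm 3R were not tested in any model.

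TwdlT was called in both N-terminal models. TwdlE was called in both glial models, and lower with glial full-length mHTT, with a log2 change of -0.67. TwdlE rose with glial N-terminal mHTT, with 38.8 to 77.6 against 10.3 to 51.1 in controls (1.60, SE 0.23, adjusted p = 7.66e-05). The control at 51.1 is the day 8 library that stood apart, and the other 8 controls were at 21.3 or less, so the log2 change was 1.82 without it (adjusted p = 1.58e-07). TwdlT fell with glial N-terminal mHTT, with 50.5 to 120 against 84.1 to 170 (-0.79, SE 0.14, adjusted p = 0.000441). It rose with neuronal N-terminal mHTT, with 131 to 209 against 61.9 to 207 (0.83, SE 0.14, adjusted p = 0.00111), where the control at 207 is the day 11 library. Overlapping genes in the annotation, antisense for TwdlE and same-strand for TwdlT, leave the assignment of their reads uncertain.

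Osi2 was the 1 member that fell in all 4 models. With neuronal N-terminal mHTT day 7 gave 111, 122 and 124, day 9 gave 182, 158 and 198, and day 11 gave 131, 136 and 136. The controls had 592, 588 and 670, then 598, 529 and 629, then 535, 722 and 486. The groups did not come near each other, with means of 144 ± 29.3 in mHTT heads and 594 ± 73.3 in controls (SD, n = 9 each). The log2 change was -2.05 (SE 0.08, adjusted p = 1.77e-09), or 4.12-fold lower. In this model the photoreceptor sum was also lower without overlap, at 714937 to 897969 in mHTT heads, against 1124461 to 1503758 in controls, and its part in the Osi2 change was not tested.

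With glial full-length mHTT, Osi2 had 194 to 253, against 510 to 868 in controls, without overlap (-1.62, SE 0.06, adjusted p = 6.88e-12). At day 20 it was 203, 194 and 204 in mHTT heads against 731, 868 and 822 in controls. With glial N-terminal mHTT it had 147 to 349 against 243 to 426, and the groups were apart at each age (-0.69, SE 0.10, adjusted p = 5.61e-05). With neuronal full-length mHTT it had 475 to 917 against 973 to 1358 with no overlap, by -0.55 (SE 0.12, adjusted p = 0.00432).

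Osi8 lies in the same run, and with Osi6 and Osi7 it has been tied to octanoic acid resistance in Drosophila sechellia. Its direction differed between models. It rose with glial full-length mHTT, with 35.8 to 109 against 21.6 to 66.3 in controls (0.89, SE 0.16, adjusted p = 0.000263). It fell in the other 3 models: by 1.02 with glial N-terminal mHTT, with 3.67 to 25.1 against 8.16 to 40.5 (SE 0.30, adjusted p = 0.0149), by 0.65 with neuronal N-terminal mHTT (SE 0.19, adjusted p = 0.0347) and by 0.60 with neuronal full-length mHTT (SE 0.13, adjusted p = 0.00541). The neuronal N-terminal call was lost with a replicate block (adjusted p = 0.0555), with the libraries of 1 label prefix (0.0834) and without any of 13 libraries (0.0530 to 0.0758). In the glial N-terminal model it was called at day 5, with 4.54, 5.91 and 21.9 against 20.5, 33.2 and 40.5 in controls and 1 mHTT library within the control range (-1.71, SE 0.52, adjusted p = 0.0383). That call was lost when the prefix was added as a covariate (adjusted p = 0.0666), with 1 prefix (0.158) and without any of 5 libraries (0.0501 to 0.171). Osi6 passed the filter with neuronal full-length mHTT alone. At day 22 it had 6.24, 6.22 and 12.7 there against 65.3, 38.1 and 34.0 in controls (-2.33, SE 0.43, adjusted p = 0.00455). Over the 3 ages its change was -1.25 (SE 0.25, adjusted p = 0.00241).

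The difference between drivers was tested itself, as the neuronal change minus the glial change in a fit of all 72 libraries. The filter was applied over all 72, so members near 0 in the groups compared could be counted. Among those called, Cpr11A and Osi6 did not pass it in either N-terminal model, nor Acp65Aa and Cpr49Af in either full-length model. Those calls are not read as changes, and the counts and shares below with all libraries include them. The ages differ between the N-terminal models and the temperature between the full-length models, so these cannot be told apart from the driver. For N-terminal mHTT, 14 of 44 members differed, 9 with a higher and 5 with a lower neuronal change, where 29.6% of all 10976 genes differed. For full-length mHTT, 21 of 44 differed, 11 higher and 10 lower, against 21.0% of all genes. With all libraries, the share among the members was thus near the background for the N-terminal form (31.8%). It was above the background for the full-length form (47.7%), with members chosen when results of these data were known. Without the glial and the neuronal control library that stood apart, 18 of 43 members differed for N-terminal mHTT, where 3410 of 10949 genes did. For full-length mHTT, 23 of 43 members and 3399 of 10949 genes differed in that fit. The share of members was above the background for both forms there, so the N-terminal result depends on those libraries.

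Cpr72Ec and Cpr49Ae differed most clearly with both forms. For Cpr72Ec the difference was 3.69 with N-terminal mHTT (SE 0.24, adjusted p = 2.15e-18) and 2.86 with full-length mHTT (SE 0.24, adjusted p = 5.52e-14). Cpr49Ae differed by 1.76 (SE 0.11, adjusted p = 2.11e-18) and 1.67 (SE 0.11, adjusted p = 5.39e-17). Osi2 fell more with the neuronal driver for the N-terminal form, by a difference of -1.36 (SE 0.13, adjusted p = 5.94e-12), and less with the neuronal driver for the full-length form, by 1.07 (SE 0.13, adjusted p = 8.04e-09). TwdlG had a difference of -1.40 with full-length mHTT (SE 0.13, adjusted p = 3.49e-12).

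**Figure D4:**
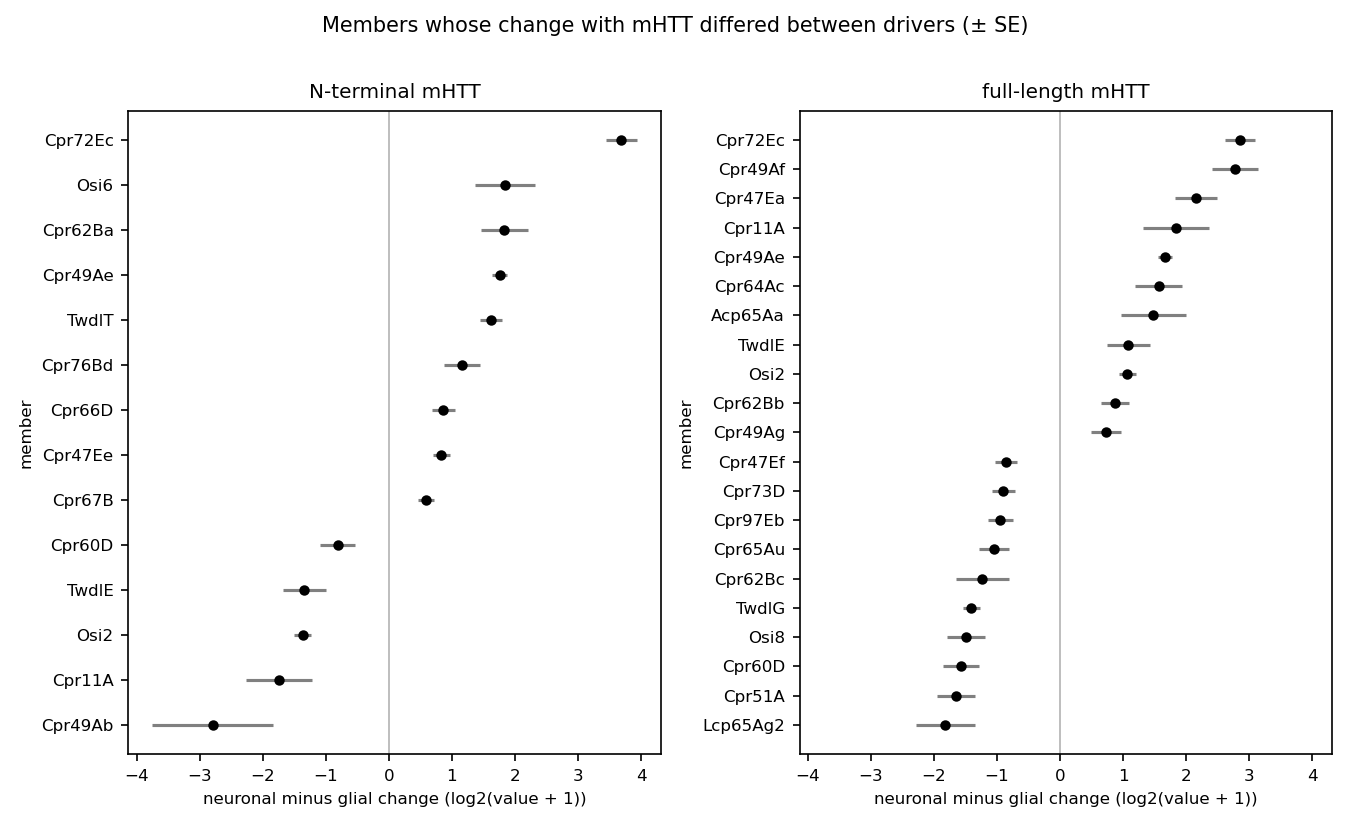
Members whose change with mHTT differed between drivers at an adjusted p under 0.05, with the neuronal minus the glial log2 change on the x axis and the SE as bars, for N-terminal mHTT (left, 14 members) and full-length mHTT (right, 21 members). Cpr72Ec has the highest difference on both sides, at 3.69 and 2.86. Cpr11A and Osi6 (left) and Acp65Aa and Cpr49Af (right) did not pass the filter in either of the models compared.

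Control heads alone showed how these genes change with adult age, and no general decline was found. In the elav-GAL4/+ controls 37 members were tested, and from days 7, 9 and 11 to days 18, 20 and 22 there were 8 that rose and 6 that fell, where 8.75% of all 10289 genes rose and 6.77% fell. In the repo-GAL4/+ controls 34 were tested, 10 rose and 7 fell between days 5, 7 and 8 and days 18, 20 and 22, beside 21.7% and 16.1% of all 10354 genes. The median log2 change of the members was 0.13 with the neuronal and -0.08 with the glial driver, and that of all genes 0.05 and 0.02. Late neuronal controls were kept at 29 °C and early ones at 28 °C, which cannot be told apart from age. In the glial controls the summed fat body markers were 340293 to 738530 late and 769809 to 2079100 early. The haemocyte sum was 2359 to 5756 late and 8033 to 12765 early. In the neuronal controls the fat body sum was 728940 to 1179257 late and 1124599 to 3242262 early. The haemocyte sum there was 3902 to 6354 late and 6171 to 10828 early. The part of these sums was not tested. Without the day 11 library, 21 of 36 members were called in the neuronal controls, 14 up and 7 down, where 44.1% of all genes were called.

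Of 34 members tested with both drivers, 11 changed in both and in the same direction, as did 10.9% of the 10148 genes tested with both. Osi2, Osi8, TwdlG, TwdlT, Cpr47Ef and Cpr64Ac rose, and Cpr47Ea, Cpr47Ee, Cpr49Ae, Cpr49Ag and Cpr50Cb fell. Not every rise held at each late age. In glial controls TwdlT averaged 302 on day 18 but 146 and 161 on days 20 and 22, against 140 and 157 on days 7 and 8. Cpr47Ef averaged 39.7 there on both day 7 and day 22. In neuronal controls TwdlG averaged 330 on day 22 and 363 on day 11. Cpr50Cb with both drivers and Cpr64Ac in glial controls passed the filter only through the window where they were higher. Osi2 averaged 1175 ± 129 in late and 594 ± 73.3 in early neuronal controls (0.98, SE 0.09), and 669 ± 121 in late and 347 ± 59.9 in early glial controls (0.94, SE 0.07, adjusted p = 6.51e-08). Early and late values did not overlap with either driver. Cpr49Ae averaged 115 ± 11.4 late and 286 ± 47.9 early in neuronal controls (-1.29, SE 0.09), and 170 ± 17.8 late and 299 ± 65.5 early in glial controls (-0.79, SE 0.07, adjusted p = 4.53e-07), also without overlap. SDs are over 9 libraries each.

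Further members that fell were Cpr47Ee, by 0.80 and 0.83 with the neuronal and the glial driver, and Cpr49Ag, by 1.05 and 0.92. Among those that rose, Cpr64Ac gained 2.15 in neuronal controls, with 32.4 to 52.2 late and 5.62 to 27.0 early, and Cpr47Ef gained 1.09 there, with 117 to 204 late and 60.5 to 94.9 early. Cpr47Ef rose by 0.76 and Cpr64Ac by 1.09 in glial controls, where Cpr64Ac was never above 15.2. Cpr72Ec fell in glial controls by 0.55 (SE 0.12, adjusted p = 0.00216), yet its 3 libraries of day 18, at 10897 to 12184, lay within the early range of 8693 to 13042. All 3 of those day 18 libraries carry the same label prefix, which 5 other glial controls share. In neuronal controls its late minus early change was -0.63, which was not called, and -0.40 (adjusted p = 0.00076) without the day 11 library. Further, Cpr47Ea and Cpr49Ab changed in glial controls, by -1.12 and 1.61. For Cpr49Ab the call was lost with a pseudocount of 10 (adjusted p = 0.0912), with a prefix covariate (0.0905) and without 1 library (0.0516).

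**Figure D5:**
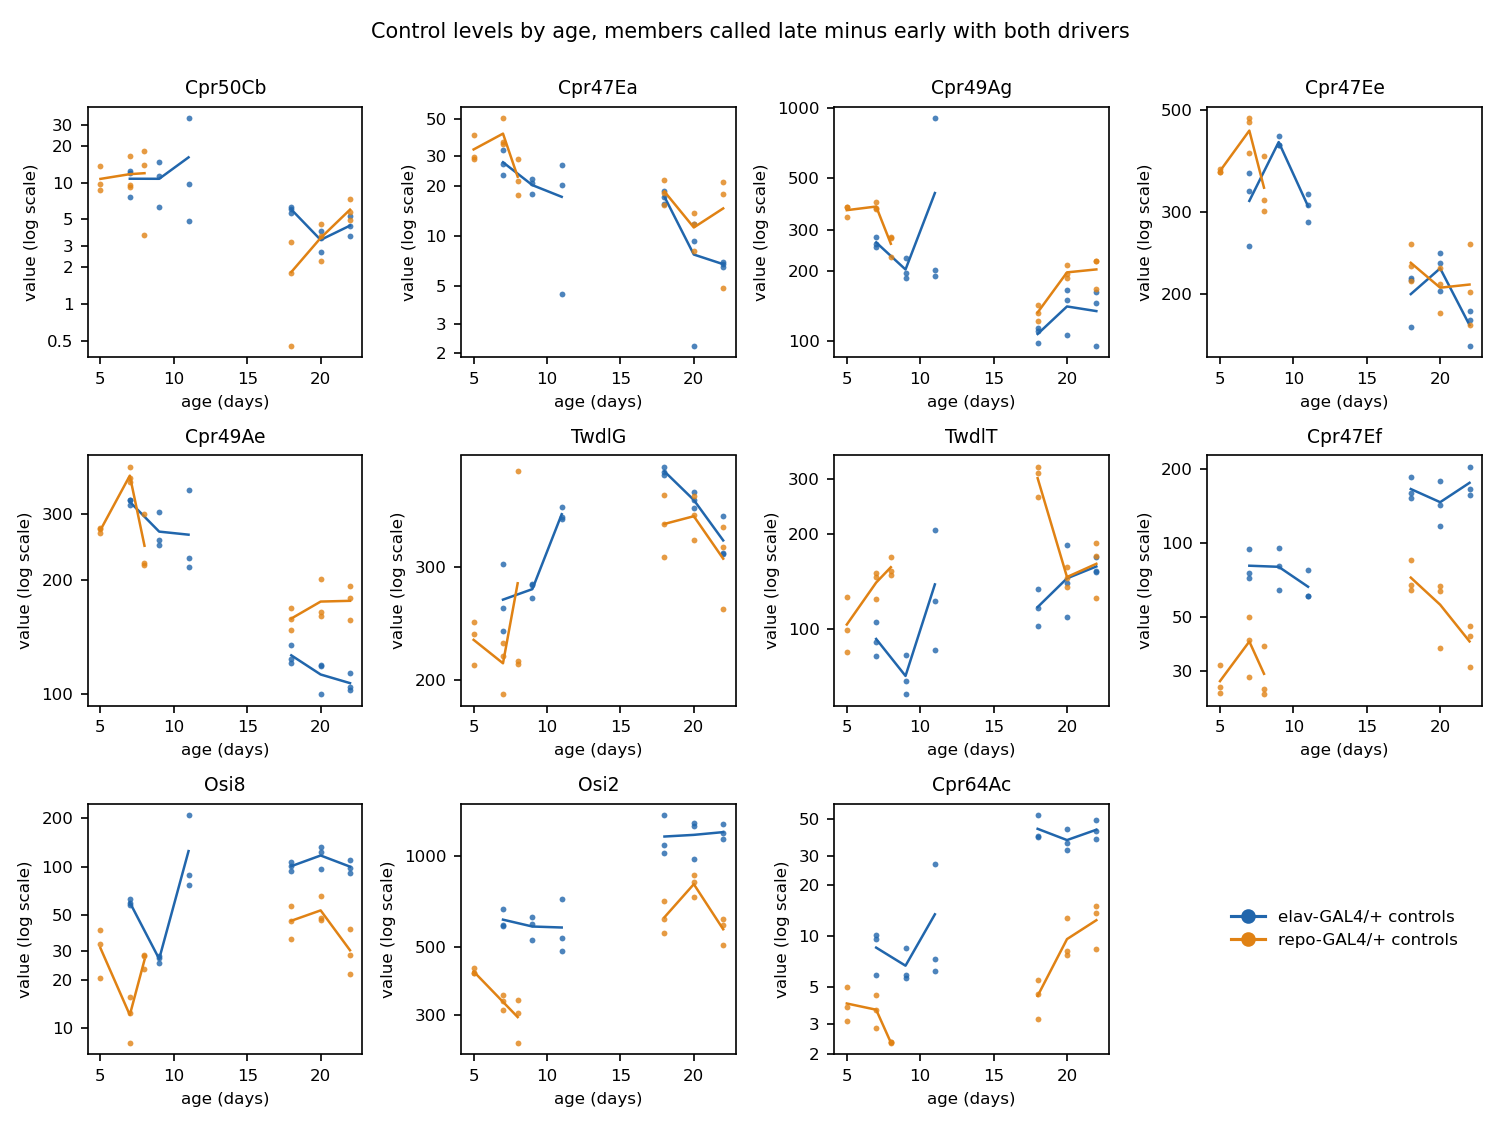
Values (y axes, log scale) of the 11 members called late minus early with both drivers, by age in days (x axes), in elav-GAL4/+ (blue) and repo-GAL4/+ (orange) controls; points are libraries and lines join the means of 3 within each age window. The panels run from Cpr50Cb, which falls, to Cpr64Ac, which rises.

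Within an age window fewer members changed. In neuronal controls 1 member changed between days 11 and 7, TwdlG (0.45, SE 0.10, adjusted p = 0.0353), with 1.37% of all genes called, and none changed between days 22 and 18, where 2.07% were called and 8 members had an unadjusted p under 0.05. The TwdlG call was lost without any of 12 libraries (adjusted p = 0.0508 to 0.160). Without the day 11 library these counts became 5 and 8 of 36, where 8.29% and 24.8% of all genes were called. In glial controls 4 members changed between days 8 and 5, against 4.71% of all genes: Cpr11B (-1.14, SE 0.25, adjusted p = 0.0182), Osi2 (-0.51, SE 0.12, adjusted p = 0.0217), Cpr49Ag (-0.48, SE 0.11, adjusted p = 0.023) and TwdlT (0.62, SE 0.16, adjusted p = 0.0377). Without the day 8 library that stood apart 2 of 34 were called, both lower, against 3.88% of all genes. The calls of Cpr49Ag (-0.39, adjusted p = 0.0811) and TwdlT were lost. Leaving out any of 5 libraries ended the call of Osi2 (adjusted p = 0.0520 to 0.1), and any of 4 that of Cpr11B (0.0517 to 0.0845). Another 4 changed between days 22 and 18, against 5.53%: TwdlT (-0.92, SE 0.16, adjusted p = 0.00358), Cpr49Ag (0.60, SE 0.11, adjusted p = 0.0058), Cpr72Ec (-0.82, SE 0.21, adjusted p = 0.035) and Cpr67B (-0.39, SE 0.10, adjusted p = 0.0389). The Cpr72Ec call was lost when the prefix was added as a covariate (adjusted p = 0.0527) and without any of 6 libraries (0.0503 to 0.138).

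The change from day 7 to days 18, 20 and 22 could be compared between drivers. It differed for 1 of 38 members, Osi6, against 1.03% of all 10645 genes. In neuronal controls Osi6 had 26.2, 25.9 and 15.1 on day 18, 8.40, 11.3 and 3.55 on day 20 and 65.3, 38.1 and 34.0 on day 22, against 1.93, 0 and 4.81 on day 7. In glial controls it was at most 6.06 at those late ages, against 9.11, 10.4 and 13.4 at day 7. The neuronal minus glial difference was 5.01 on the log2(value + 1) scale (SE 0.69, adjusted p = 0.000247), a size that depends on the added 1 since many values lie near 0.

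Genes that assemble and cross-link the cuticle were read beside the members, from lists chosen with earlier results of these data known. The shares of all genes called higher and lower were 6.03% and 7.53% with neuronal N-terminal, 20.4% and 12.1% with glial N-terminal, 9.40% and 9.54% with neuronal full-length and 19.3% and 25.1% with glial full-length mHTT. Of 24 genes for chitin synthesis and cuticle assembly, 8 rose and 0 fell of 21 tested with neuronal N-terminal mHTT, 3 rose and 2 fell of 21 with glial N-terminal mHTT, 5 rose and 3 fell of 22 with neuronal full-length mHTT, and 9 rose and 4 fell of 21 with glial full-length mHTT. The chitin synthase gene kkv rose in all 4, by 0.54, 0.63, 0.59 and 0.72 in that order. The chitin deacetylase gene serp rose by 1.12 (SE 0.10) and the chitin-binding gene Gasp by 0.93 (SE 0.07) with neuronal N-terminal mHTT, whereas obst-A, another chitin-binding gene, fell by 1.05 (SE 0.13) with neuronal full-length mHTT. In controls, serp rose with age by 0.91 in neuronal and 0.63 in glial heads, and the chitinase gene Cht7 fell by 1.19 and 1.55.

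Of 10 tanning and pigmentation genes, 0 rose and 1 fell with neuronal N-terminal mHTT, 1 and 1 with glial N-terminal, 1 and 2 with neuronal full-length and 2 and 4 with glial full-length mHTT, beside the same shares of all genes. The gene e, which encodes the enzyme that couples dopamine to beta-alanine, fell by 1.36 with glial N-terminal mHTT (SE 0.09, adjusted p = 1.11e-08), by 0.98 with neuronal full-length mHTT (SE 0.15) and by 0.70 with glial full-length mHTT (SE 0.08). Of 14 regulators of the ecdysone response, which times cuticle gene bursts at each moult, 13 were tested: 0 were called with neuronal N-terminal mHTT, 1 rose with glial N-terminal, 2 rose with neuronal full-length, and 6 fell with glial full-length mHTT, where 25.1% of all genes fell. The 6 that fell were ftz-f1, Hr38, Hr46, Eip75B, br and Eip93F, by 0.18 to 0.64.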

How the data were processed

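RNA was sequenced from pooled heads of 72 fly samples with a stranded mRNA kit, per the labels' protocols. The deposited values are a signal made by the authors: RSEM gene values scaled so that the 75th percentile is 1000 in each library, not per length. The submitters' processing notes name CASAVA 1.8.2, Bowtie 0.12.0, RSEM 1.1.19, DESeq2 and dm3, without their roles. Whether counting used strand is not given in the sources used here, so members with an antisense neighbour are uncertain, and likewise near-identical paralogs (Ccp84A genes, Lcp65Ag2 and Lcp65Ag3). Named members with an antisense overlap include Cpr65Au, Cpr51A, Cpr64Ac, Cpr47Ea, Cpr11B and TwdlE. Of the low values, 92.1% to 95.5% were whole multiples of the value of 1 read (tolerance 0.02 of a read), which gave the depth estimates. No 2 libraries of a group were identical, and the smallest variance between them was 8.82 times that of counting.

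Values were tested as log2(value + 1) in R 4.3.3 with limma 3.58.1 (moderated test with a mean-variance trend), for genes with a value of 10 or more in 3 or more libraries of a fit. Each model was fitted with its 18 libraries, each driver's controls together, and driver differences over all 72. P-values were adjusted by Benjamini-Hochberg over all genes tested, and a change was called at an adjusted p under 0.05. A fold change on this scale understates the change of low genes. The code was tested on simulated data. Members and gene lists were chosen with earlier results of these data known. Named genes were, with a group mean of 30 or more, up to 5 called members per model, 2 per age and 4 in each direction per driver by size of change. The 2 highest members of a family, up to 3 per difference test, Osi2 and TwdlG were added. Members named beyond these were chosen after their values were seen. Alternatives were pseudocounts of 0.1 and 10, no filter, median-ratio rescaling, a replicate block, the label prefix as a covariate, a single prefix, and leaving out libraries. Reads of the transgene were not analysed here.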

Additional observations from a re-analysis of the deposited data

Results flagged for a closer look

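Several changes differed between drivers or ages in a test of the difference itself. With N-terminal mHTT the neuronal minus glial change was called for 14 members, with values of 3.69 for Cpr72Ec, 1.757 for Cpr49Ae and -1.362 for Osi2 on the log2 scale. With full-length mHTT it was called for 21 members, with 2.86 for Cpr72Ec, 1.667 for Cpr49Ae and -1.405 for TwdlG. Osi2 therefore had opposite signs of this difference with the N-terminal and the full-length form, at -1.36 and 1.07, although it fell in each of the 4 models. Age (N-terminal) and temperature (full-length) cannot be told apart from the driver. The counts of 14 and 21 include members that did not pass the filter in either of the models compared. With glial full-length mHTT, 1 member's change differed between ages, Cpr49Ae with a moderated F of 20.94. In controls, the change from day 7 to days 18, 20 and 22 differed between drivers for 1 member, Osi6, by 5.009. Only the neuronal controls changed temperature between these ages, so temperature cannot be told apart from the driver there.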

How the results depend on the processing

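Of 78 changes of named members, 65 lost no call and kept their sign in every alternative run. The sign of TwdlG with glial N-terminal mHTT, -0.09 and not called, turned to 0.019 without the glial control library of day 8 replicate 1, and ran from -0.15 to 0.019 over the libraries left out in turn. Osi8 and TwdlG with neuronal N-terminal mHTT, Osi8 with glial N-terminal mHTT, and changes within a control age window (Cpr72Ec of days 22 against 18, Osi2, Cpr11B and Cpr49Ag of days 8 against 5, TwdlG of days 11 against 7) lost their call in some alternatives. Replicate numbers did not pair the libraries: the correlation of same-numbered deviations ran from -0.55 to 0.47 and was over 0.1 for 5 of 36 pairs. With the replicate block Osi8 with neuronal N-terminal mHTT lost its call (-0.65, adjusted p = 0.0555), and 1 count moved by over 1.5 times, days 11 against 7 of neuronal controls, to 0, and TwdlG there had 0.45 at an adjusted p of 0.0537.

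Leaving out the 2 libraries rich in cuticle transcripts, chosen after seeing the data, gave 11, 9, 14 and 16 members for days 7, 9, 11 and their mean with neuronal N-terminal mHTT, 3 for its age difference, 2 for days 8 against 5 of glial controls, 5 and 8 within the neuronal control windows, and 3 for the driver difference in ageing. Calls over all genes moved as well. For days 7, 9, 11, their mean and the age difference of neuronal N-terminal mHTT they were 1433, 2414, 1883, 3729 and 373 of 10127. With all libraries they were 201, 439, 790, 1378 and 1 of 10162. They were 401 of 10336 for days 8 against 5 of glial controls and 849 and 2537 of 10241 within the neuronal control windows. For the driver difference in ageing they were 694 of 10610. Leaving out the farthest libraries gave the same 11, 9, 14, 16 and 3 members, then 5, 8 and 3, with 11 and 13 for days 18 and 20 of neuronal full-length mHTT, 1 for the glial N-terminal age difference and 2 for days 22 against 18 of glial controls. The label prefix as a covariate gave 11, 9, 15 and 18 for neuronal N-terminal mHTT, 2 for its age difference, 2 for that of glial full-length mHTT, and 5, 8 and 3 in controls. Libraries of the most frequent prefix gave 3 and 3 for days 5 and 8 of glial N-terminal mHTT, 2 for the glial full-length age difference, 9 for neuronal N-terminal day 9, 11 for neuronal full-length day 18, and 0 and 5 within the neuronal control windows. With no filter, glial N-terminal mHTT gave 14 at day 7 and 21 over its mean, neuronal N-terminal day 9 gave 6, the neuronal full-length mean 25, the N-terminal driver difference 23 and neuronal controls of days 11 against 7 gave 0, as did median-ratio rescaling. A pseudocount of 10 gave 2 for the driver difference in ageing. Calls over all genes are not given for these other alternatives, so their counts are not read as a result about the members. The cause of these moves was not tested.

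Leaving out each library in turn gave, for days 7, 9, 11, the mean and the age difference of neuronal N-terminal mHTT, 2 to 11, 2 to 9, 3 to 14, 5 to 16 and 0 to 3 members. For days 5, 7, 8, the mean and the age difference of glial N-terminal mHTT it gave 3 to 11, 5 to 9, 4 to 7, 10 to 17 and 0 to 1. For days 18, 20, 22, the mean and the age difference it gave 6 to 11, 3 to 13, 5 to 10, 13 to 19 and 0 to 0 with neuronal full-length mHTT, and 7 to 12, 11 to 15, 16 to 21, 17 to 23 and 0 to 2 with glial full-length mHTT. Driver differences gave 13 to 17 (N-terminal) and 19 to 22 (full-length). Late minus early, days 11 against 7 and days 22 against 18 gave 11 to 21, 0 to 5 and 0 to 8 in neuronal controls. Late minus early, days 8 against 5 and days 22 against 18 gave 15 to 18, 1 to 5 and 2 to 8 in glial controls, and the driver difference in ageing 1 to 3. Calls over all genes are not given beside these ranges, which are not read as a result about the members.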
